A study of Mus musculus with 5 samples.

Results

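Cytokines are secreted or membrane-bound signalling proteins, and the genes described here encode interleukins, chemokines, ligands of the tumour necrosis factor (TNF) superfamily and the receptors of these 3 groups. Members were chosen by symbol alone: those beginning with Il, Ccl, Cxcl, Ccr or Cxcr and a digit, or with Tnfsf or Tnfrsf. In all, 125 of the 10855 gene symbols in the deposited table matched, among 24538 gene rows in total. The other 13683 rows carry numbered assembly names that the table does not pair with symbols, so a cytokine or receptor gene counted only under such a name was not analysed here.

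The cells were mouse embryonic stem cells (ESC), cultured pluripotent cells of the early embryo, and polyadenylated RNA was sequenced. There were 3 libraries of wildtype genotype (wildtype 1 to 3). There were 2 libraries of the genotype in which the −45 super-enhancer (SE) was deleted (deleted 1 and 2). Super-enhancers are dense groups of enhancers, and the series title ties this one to expression of the pluripotency gene Nanog. Per the labels' protocols, cells received ethanol vehicle or 4OHT, a form of tamoxifen, for 6 days, but no library is assigned to either, so treatment and genotype cannot be told apart from the labels. The design text names 3 replicates of each condition while 2 libraries of the deleted genotype were used here. Neither the clonal origin of the cells nor whether replicates were separate cultures is given in the sources used here, so the p-values measure only the spread among libraries, and that spread may be technical. The question was how expression of these genes differed between the genotypes.

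Interleukins and chemokines are mostly made and read by leukocytes. Interleukin receptors work as combinations of chains, some private to a ligand and some shared. Chemokine receptors are G protein-coupled receptors that steer migrating cells. TNF superfamily ligands bind receptors that lead to NF-kB activation or cell death. In mouse ESC the best-known cytokine input is LIF, which acts through gp130 and STAT3 and lies outside the symbol rule.

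The libraries held 93574214 to 213042064 bin counts, wildtype 3 being the deepest. A single count was worth 0.00463 to 0.0107 CPM (counts scaled to a common library size), and 3 counts 0.0139 to 0.0321 CPM. These values cover counting error only. The chi-square divided by its degrees of freedom over the tested genes reached 9.96 for wildtype 1 against 2, 93.4 and 87.4 for wildtype 3 against each of them, and 21.9 for the deleted pair. None of the 15 listed pluripotency markers has a symbol row, so the stem cell label was not checked by them, and Nanog was not analysed here.

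Among the members, 34 were silent, meaning 0 counts in all 5 libraries, and 34 more were at trace level, with at most 3 counts in any library. A further 28 were counted above that but too low for a test, and 29 were tested. The silent share was 27.2% of members against 33.1% of the other 10730 symbols, the trace share 27.2% against 17.8%, and the tested share 23.2% against 33.2%. A count of 0 allows a level of up to 3 counts, or 0.0139 CPM in wildtype 3 and 0.0321 CPM in deleted 1. In bulk RNA, fewer cells expressing a gene and less RNA per cell cannot be told apart.

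**Figure D1:**
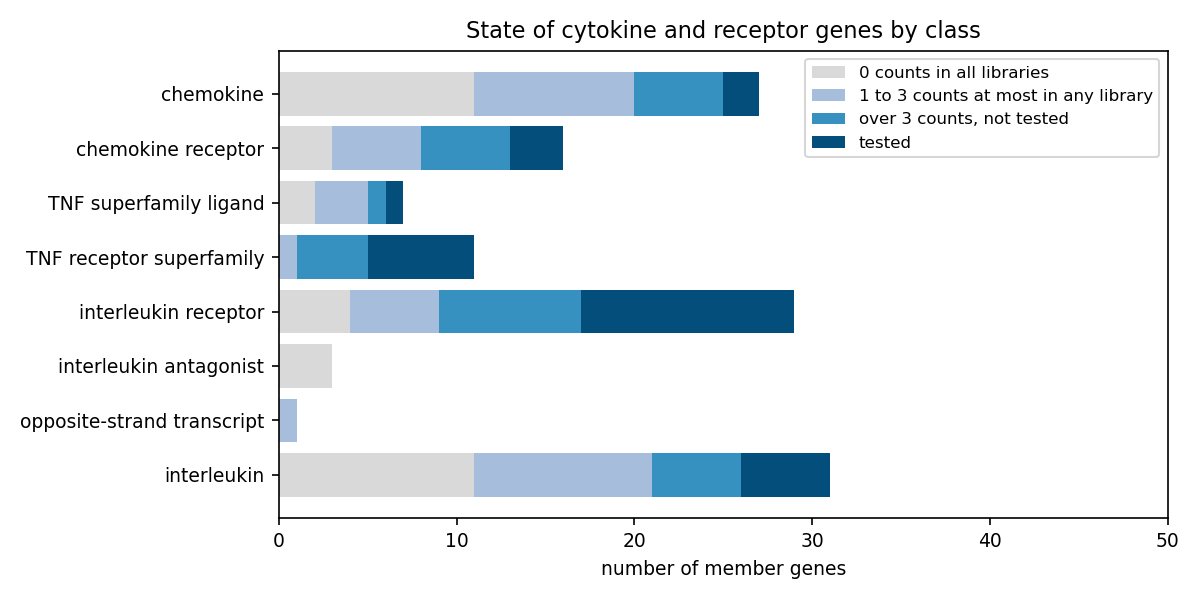
Number of member genes (x axis) in each class (y axis), with bar segments for 0 counts, traces, counted but not tested, and tested. Of 27 chemokine genes 2 were tested, and of 29 interleukin receptor genes 12.

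Receptors were counted more often than ligands. Of 65 ligand genes 24 were silent (36.9%) and 8 were tested (12.3%), whereas of 56 receptor genes 7 were silent (12.5%) and 21 were tested (37.5%). The summed level of the ligands was 3.30, 3.42 and 3.30 CPM in wildtype 1, 2 and 3 and 3.86 and 3.46 CPM in the deleted libraries. That of the receptors was 18.1, 17.1 and 17.3 CPM in wildtype and 22.8 and 23.7 CPM in the deleted libraries. The deleted libraries were above all wildtype libraries in both sums, in the ligands by as little as 3.46 against 3.42 CPM. The margin was wider in the receptors. Their sums include Il1rap, Il1rl2 and Il1r1, with wildtype means of 2.44, 0.726 and 2.61 CPM and deleted means of 4.31, 2.18 and 3.89 CPM. In the gene test below, 6 receptor genes rose and 1 fell. No test was made of these sums.

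The chemokine ligands were the least counted large class. The silent ones were Ccl2, Ccl4, Ccl7, Ccl11, Ccl12, Ccl24, Ccl26, Ccl28, Cxcl2, Cxcl13 and Cxcl15, which include the monocyte attractants Ccl2 and Ccl7 and the eotaxins Ccl11 and Ccl24. Traces were found of Ccl1, Ccl3, Ccl5, Ccl8, Ccl17, Ccl19, Ccl22, Cxcl1 and Cxcl9. Ccl6, Ccl9, Ccl20, Cxcl3 and Cxcl5 were counted but not tested. Among the chemokine receptors, the silent ones included Ccr9 and Cxcr3, and Ccr1, Ccr1l1, Ccr2, Ccr3 and Ccr10 were at trace level. Ccr6, Cxcr1, Cxcr2, Cxcr5 and Cxcr6 were counted but not tested.

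The silent interleukins were Il1b, Il1f6, Il1f10, Il4, Il5, Il9, Il17a, Il20, Il21, Il22 and Il27. They include the inflammatory cytokine Il1b and the helper T cell products Il4, Il5 and Il17a. At trace level were Il1f8, Il1f9, Il3, Il12a, Il12b, Il13, Il17c, Il19, Il24 and Il31. Il6, Il10, Il11, Il15 and Il18 were counted but not tested. The 3 soluble antagonists, Il1rn of interleukin-1, Il1f5 of interleukin-36 and Il22ra2 of interleukin-22, were all silent. Il1bos, a transcript opposite Il1b, was at trace level.

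Among interleukin receptors, Il7r, Il21r, the decoy Il13ra2 and Il1rapl1 were silent. Il2rb, Il5ra, Il23r, Il31ra and Il1rapl2 were at trace level. Il1rl1, Il9r, Il10ra, Il15ra, Il17rb, Il18r1, Il18rap and Il20ra were counted but not tested. In the TNF superfamily the ligands Tnfsf8 and Tnfsf14 were silent, Tnfsf4, Tnfsf15 and Tnfsf18 were at trace level, and Tnfsf10, which encodes the death ligand TRAIL, was counted but not tested. Of 11 TNF receptor genes 0 were silent, Tnfrsf14 was at trace level, and Tnfrsf4, Tnfrsf11b, Tnfrsf17 and Tnfrsf26 were counted but not tested.

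The counted but untested members totalled 7 to 55 counts over the 5 libraries. Tnfrsf4, the T cell co-stimulatory receptor OX40, had 6, 7 and 30 counts in wildtype 1, 2 and 3, and in deleted 1 and 2 it had 4 and 8, so most of its counts came from wildtype 3. Cxcr2, the neutrophil chemokine receptor, had 10, 11 and 14 counts in wildtype and 8 and 5 in the deleted libraries. Il17rb, a receptor chain for interleukin-25, had 8, 7 and 20 counts in wildtype and 4 and 6 in the deleted libraries. Tnfrsf17, a receptor of B lineage cells, had 13, 2 and 11 counts in wildtype and 5 and 5 in the deleted libraries. Il10ra, the private chain of the interleukin-10 receptor, had 11, 5 and 10 counts in wildtype and 3 and 5 in the deleted libraries.

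All 5 were spread over both genotypes. Of the 28 counted but untested members, 2, named here after their values were seen, had counts in wildtype alone. Ccr6 had 9, all in wildtype 3, and Ccl9 had 2, 1 and 4.

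Of the 29 tested members, 7 rose and 1 fell in the deleted cells at an adjusted p under 0.05 (edgeR quasi-likelihood test, Benjamini-Hochberg over all 16259 tested rows), and 21 did not pass. The 7 were the receptor genes Il1rl2, Il1rap, Il1r1, Il4ra, Il12rb1 and Tnfrsf11a and the interleukin gene Il17f, and the 1 was the receptor gene Tnfrsf13c. As shares this is 24.1% higher and 3.45% lower. Among all tested rows 19.9% were higher and 19.6% lower, and among tested symbols 18.9% and 12.9%, so the higher share of the members is near the background. The median log2 fold change, deleted minus wildtype throughout, was 0.17 over the tested members, 0.07 over tested symbols and 0.01 over all tested rows. All 8 called members were over the low-count limit of 0.0871 CPM in each of the 5 libraries. Over all 29, 8 had CPM values in the deleted libraries above every wildtype library (27.6%) and 5 below (17.2%), against 31.9% and 31.3% of all tested rows.

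**Figure D2:**
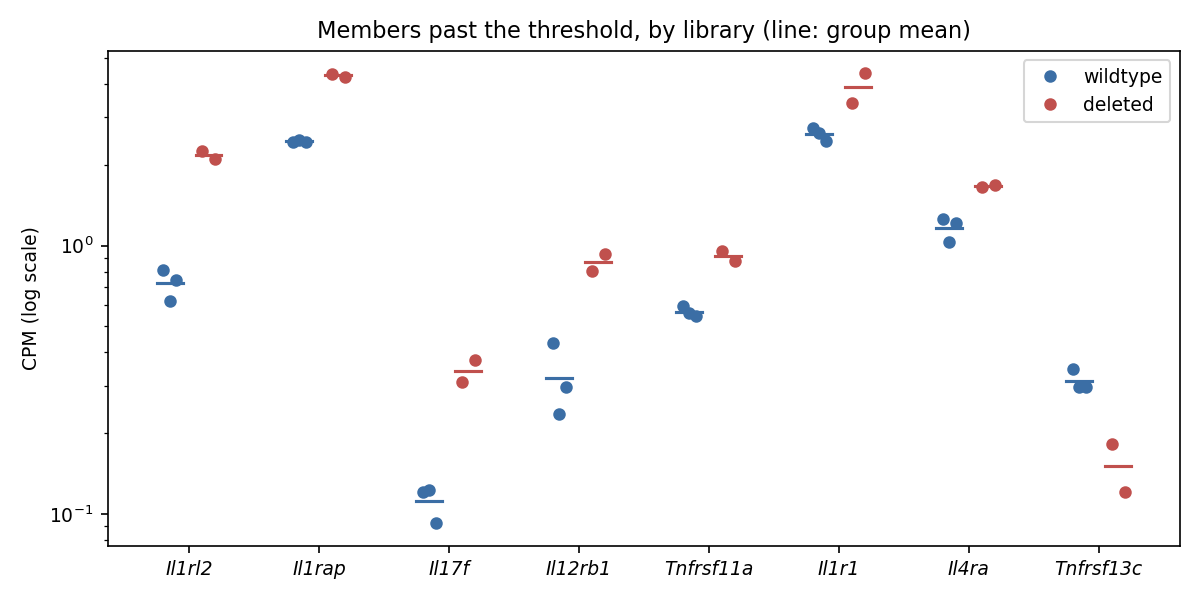
CPM on a log axis (y) of the 8 members past the threshold (x), 1 point per library, with a line at each group mean. In all 8 the wildtype and deleted libraries do not overlap, and Tnfrsf13c alone is lower in the deleted libraries.

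The interleukin-1 receptor family held 3 of the 7 genes that rose, Il1rl2, Il1rap and Il1r1. Of the same family, Il1r2 was tested and did not pass. Among tested symbols 18.9% were higher, and the family was not tested as a set. The start-site sequences of the 3 genes are shown with that of Il1b, a silent ligand gene of the Il1r1 and Il1rap receptor chains. Il1rl2 belongs with Il1rap to the interleukin-36 system instead. Base composition around the start differs among some of these sequences. Each is 300 bases from RefSeq (GRCm38.p6), 250 before to 50 after an annotated start and read 5′ to 3′ along the gene. Il1b lies on the minus strand and the others on the plus strand. Capitals mark CpG, the dinucleotide that DNA methylation acts on and that is dense at many broadly active promoters.
Il1rl2, chr1:40324339-40324638: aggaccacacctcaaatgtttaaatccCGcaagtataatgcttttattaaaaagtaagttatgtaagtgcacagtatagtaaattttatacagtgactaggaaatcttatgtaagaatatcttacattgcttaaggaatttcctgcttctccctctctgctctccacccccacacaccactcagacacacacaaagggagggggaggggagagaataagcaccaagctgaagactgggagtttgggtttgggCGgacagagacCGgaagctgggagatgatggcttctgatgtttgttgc
Il1rap, chr16:26581455-26581754: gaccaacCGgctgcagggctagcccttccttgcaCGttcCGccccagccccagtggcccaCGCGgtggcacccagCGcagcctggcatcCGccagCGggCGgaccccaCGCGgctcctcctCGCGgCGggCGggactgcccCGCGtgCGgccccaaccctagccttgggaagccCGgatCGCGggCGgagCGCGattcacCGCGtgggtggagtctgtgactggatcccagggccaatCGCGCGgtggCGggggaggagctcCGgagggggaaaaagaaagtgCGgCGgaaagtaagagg
Il1r1, chr1:40224830-40225129: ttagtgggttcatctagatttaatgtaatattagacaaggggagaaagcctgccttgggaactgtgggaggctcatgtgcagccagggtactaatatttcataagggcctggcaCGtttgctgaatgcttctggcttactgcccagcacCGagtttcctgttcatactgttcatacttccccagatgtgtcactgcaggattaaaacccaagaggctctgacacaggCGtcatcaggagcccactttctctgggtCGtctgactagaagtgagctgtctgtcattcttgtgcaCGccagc
Il1r1, chr1:40266336-40266635: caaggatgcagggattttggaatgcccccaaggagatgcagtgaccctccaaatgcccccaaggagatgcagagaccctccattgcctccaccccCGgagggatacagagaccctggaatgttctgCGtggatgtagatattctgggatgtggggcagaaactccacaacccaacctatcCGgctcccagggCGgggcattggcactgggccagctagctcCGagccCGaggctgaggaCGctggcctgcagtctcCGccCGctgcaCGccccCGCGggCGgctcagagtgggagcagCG
Il1b, chr2:129371090-129371389: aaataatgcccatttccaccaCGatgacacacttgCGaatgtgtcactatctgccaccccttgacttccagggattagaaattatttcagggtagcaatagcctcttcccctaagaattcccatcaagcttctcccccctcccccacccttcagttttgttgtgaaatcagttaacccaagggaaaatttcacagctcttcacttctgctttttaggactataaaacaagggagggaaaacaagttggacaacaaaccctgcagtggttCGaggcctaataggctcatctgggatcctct
The Il1rl2 window holds 3 CpG, the Il1rap window 33, the Il1r1 windows 5 and 14, and the Il1b window 3. The TATA box letters TATAAA occur on 1 of the strands in the Il1rl2 and Il1b windows and in none of the other 3.

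Il1rl2 encodes the private chain of the interleukin-36 receptor and lies on chromosome 1 (GENCODE vM21). Its level was 0.812, 0.621 and 0.745 CPM in wildtype 1, 2 and 3 and 2.25 and 2.10 CPM in deleted 1 and 2. Every deleted library was above every wildtype library. The means were 0.726 ± 0.0967 CPM (SD, n = 3) and 2.18 ± 0.107 CPM (SD, n = 2), and the log2 fold change was 1.58 ± 0.14 (SE) with an edgeR adjusted p of 0.000230.

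Il1rap, on chromosome 16, encodes the accessory chain that the receptors for interleukin-1, interleukin-33 and interleukin-36 share. It had 2.43, 2.47 and 2.44 CPM in wildtype and 4.35 and 4.26 CPM in the deleted libraries. The libraries of each group lay close together and the groups were well apart. The means were 2.44 ± 0.0207 CPM (SD, n = 3) and 4.31 ± 0.0644 CPM (SD, n = 2), and the log2 fold change was 0.82 ± 0.09 (SE) with an edgeR adjusted p of 0.000407. An annotated antisense gene, Gm20319, shares 552 of its 11360 exon bases, and without a stated strand setting their reads cannot be told apart.

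Il1r1, the signalling receptor of interleukin-1, had 2.73, 2.63 and 2.46 CPM in wildtype and 3.41 and 4.38 CPM in the deleted libraries. The groups did not overlap, but deleted 2 was well above deleted 1. The means were 2.61 ± 0.140 CPM (SD, n = 3) and 3.89 ± 0.688 CPM (SD, n = 2), and the log2 fold change was 0.58 ± 0.13 (SE) with an edgeR adjusted p of 0.00854. Without deleted 2 the log2 fold change was 0.37 and the call was lost (edgeR adjusted p = 0.0888, from 0.00168 to 0.0888 over 14 alternatives).

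On chromosome 1, Il1r2, Il1r1, Il1rl2, Il1rl1, Il18r1 and Il18rap are consecutive protein-coding genes in RefSeq. The decoy receptor Il1r2 had 0.764, 0.639 and 0.666 CPM in wildtype and 1.07 and 0.717 CPM in the deleted libraries, and did not pass (log2 fold change 0.37 ± 0.20, SE; edgeR adjusted p = 0.178). Deleted 2 lay within the wildtype range. The genes on the other side, Il1rl1 for interleukin-33 and Il18r1 and Il18rap for interleukin-18, totalled 7, 20 and 8 counts. Il18r1 had 0, 2 and 6 counts in wildtype and 1 and 11 in the deleted libraries. Among the 214 tested symbols of chromosome 1 the median log2 fold change was 0.08 and 21.0% were higher.

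In 2 of these genes the rise was seen in every bin with enough counts to compare. Of bins with at least 20 counts, a description chosen after seeing the data, all 11 of Il1rl2 had both deleted libraries above the 3 wildtype ones, with log2 ratios of mean CPM from 1.31 to 2.04. The same held in all 12 bins of Il1rap, from 0.55 to 1.24. In Il1r1, 10 of 11 bins had a higher deleted mean, 7 without overlap, with log2 ratios from −0.03 to 0.97. Bins of a gene share reads that span them, so they are not independent. The genes were picked by the sums of these same bins, so the bins add no separate support for the rise.

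**Figure D3:**
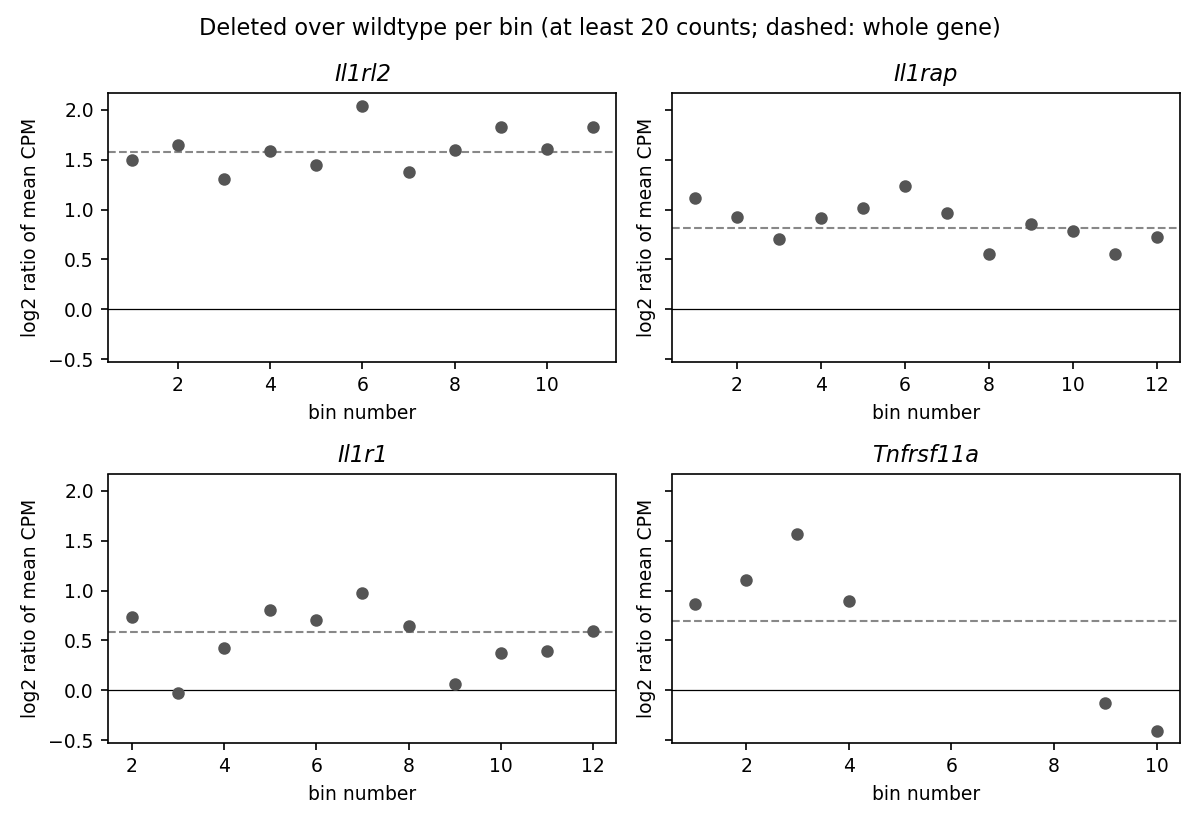
Log2 ratio of mean CPM, deleted over wildtype (y), for each bin of at least 20 counts, by the bin number of the deposited table (x), with a dashed line at the log2 fold change of the whole gene. Il1rl2 and Il1rap lie above 0 in every bin shown, whereas bins 9 and 10 of Tnfrsf11a lie below 0.

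Il12rb1, on chromosome 8, encodes the chain shared by the interleukin-12 and interleukin-23 receptors. It had 0.434, 0.236 and 0.296 CPM in wildtype and 0.804 and 0.929 CPM in the deleted libraries, with no overlap. The means were 0.322 ± 0.101 CPM (SD, n = 3) and 0.866 ± 0.0884 CPM (SD, n = 2), and the log2 fold change was 1.43 ± 0.25 (SE) with an edgeR adjusted p of 0.00308. Bin 16 alone held 46.8% of its counts. Of its 16 bins, 4 had at least 20 counts, namely bins 12, 13, 15 and 16. Bins 1 to 3 had 0 counts and bins 4 to 11 at most 8 each, so the rise was seen in the last bins only. Chromosome 8 moved with it: across its 166 tested symbols the median log2 fold change was 0.52 and 41.6% were higher, and the part of that shift in the Il12rb1 value was not tested.

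Il4ra, on chromosome 7, encodes the chain that reads interleukin-4 and interleukin-13. It had 1.25, 1.03 and 1.21 CPM in wildtype and 1.65 and 1.69 CPM in the deleted libraries. The means were 1.17 ± 0.118 CPM (SD, n = 3) and 1.67 ± 0.0251 CPM (SD, n = 2), and the log2 fold change was 0.51 ± 0.13 (SE) with an edgeR adjusted p of 0.0174. The groups did not overlap, yet the call was lost without deleted 1 (edgeR adjusted p = 0.0842) and without deleted 2 (edgeR adjusted p = 0.108), in a range from 0.0124 to 0.108 over 14 alternatives. Across the tested symbols of chromosome 7 the median log2 fold change was 0.21, and 28.4% were higher. The antisense gene Gm44876 shares 571 of the 6002 exon bases of Il4ra.

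The interleukin receptors that did not pass were 7. Il6ra, the interleukin-6 receptor chain, had 0.571, 0.639 and 0.713 CPM in wildtype and 0.675 and 0.646 CPM in the deleted libraries (log2 fold change 0.03 ± 0.17, SE; edgeR adjusted p = 0.903). The groups overlapped completely. Il10rb, a chain shared by the interleukin-10 and interleukin-22 receptors, had 0.772, 0.683 and 0.597 CPM in wildtype and 0.632 and 0.434 CPM in the deleted libraries (log2 fold change −0.35 ± 0.22, SE; edgeR adjusted p = 0.238). Il20rb, a chain of the interleukin-20 receptors, had 1.09, 1.15 and 1.37 CPM in wildtype and 0.782 and 1.15 CPM in the deleted libraries (−0.32 ± 0.20, SE; edgeR adjusted p = 0.227). Deleted 1 was below all wildtype libraries for Il20rb, and deleted 2 was not.

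Il2ra, the high-affinity chain of the interleukin-2 receptor, had 0.129, 0.105 and 0.0972 CPM in wildtype and 0.0643 and 0.0606 CPM in the deleted libraries. Its groups did not overlap, but the values rest on 12 to 21 counts in wildtype and 6 in each deleted library, and the log2 fold change of −0.79 ± 0.40 did not pass (SE; edgeR adjusted p = 0.157). It passed the low-count limit through the wildtype libraries alone. Il17re, the interleukin-17C receptor chain, had 0.257, 0.158 and 0.180 CPM in wildtype and 0.214 and 0.162 CPM in the deleted libraries (−0.07 ± 0.32, SE; edgeR adjusted p = 0.881). Il22ra1, a chain of the interleukin-22 receptor, had 0.201, 0.201 and 0.264 CPM in wildtype and 0.225 and 0.252 CPM in the deleted libraries. Its log2 fold change was 0.07 ± 0.26 (SE) with an edgeR adjusted p of 0.891. Both pairs of groups overlapped.

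Il17f, on chromosome 1, was the interleukin gene that rose. It encodes a cytokine typical of the Th17 class of helper T cells. It had 15, 14 and 20 counts in wildtype, or 0.121, 0.123 and 0.0926 CPM, and 29 and 37 counts in the deleted libraries, or 0.311 and 0.373 CPM. The means were 0.112 ± 0.0168 CPM (SD, n = 3) and 0.342 ± 0.0443 CPM (SD, n = 2), and the log2 fold change was 1.65 ± 0.27 (SE) with an edgeR adjusted p of 0.00261. The groups did not overlap, at a level of few counts per library, and Il17a, its closest relative, was silent.

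The other 4 tested interleukins did not pass. Il23a, the private subunit of interleukin-23, was the member nearest outside the threshold, with 0.691, 0.403 and 0.560 CPM in wildtype and 0.354 and 0.394 CPM in the deleted libraries (log2 fold change −0.57 ± 0.26, SE; edgeR adjusted p = 0.124). Wildtype 2 was close to the deleted libraries, and without it the log2 fold change was −0.73 and passed (edgeR adjusted p = 0.0456, from 0.0456 to 0.373 over 14 alternatives). Il25, an interleukin of the interleukin-17 family, had 12, 12 and 17 counts in wildtype and 6 and 3 in the deleted libraries, or 0.0965, 0.105 and 0.0787 against 0.0643 and 0.0303 CPM (−0.94 ± 0.49, SE; edgeR adjusted p = 0.165). Like Il2ra it passed the low-count limit through wildtype libraries alone.

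Il7, the lymphocyte growth factor, had 0.731, 0.665 and 0.634 CPM in wildtype and 0.643 and 0.565 CPM in the deleted libraries (log2 fold change −0.16 ± 0.16, SE; edgeR adjusted p = 0.481). Il33, a nuclear alarmin, had 0.145, 0.306 and 0.259 CPM in wildtype and 0.322 and 0.242 CPM in the deleted libraries (0.24 ± 0.34, SE; edgeR adjusted p = 0.616). The groups overlapped for both.

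In the TNF receptor superfamily 1 gene rose and 1 fell among 6 tested. Tnfrsf11a encodes RANK, the receptor through which osteoclasts are induced. It had 0.595, 0.560 and 0.546 CPM in wildtype and 0.954 and 0.878 CPM in the deleted libraries, without overlap. The means were 0.567 ± 0.0251 CPM (SD, n = 3) and 0.916 ± 0.0534 CPM (SD, n = 2), and the log2 fold change was 0.69 ± 0.15 (SE) with an edgeR adjusted p of 0.00786. The direction depended on the bins: bins 1 to 4 had log2 ratios from 0.86 to 1.57, while bins 9 and 10 had −0.13 and −0.41.

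Bin 10 is the most counted bin of Tnfrsf11a, and by that bin alone the log2 fold change was −0.38 and did not pass (edgeR adjusted p = 0.407, from 0.00723 to 0.407 over 14 alternatives). The call was also lost without deleted 1 (edgeR adjusted p = 0.0692). Bin 3 made up 13.9% ± 5.71 (SD, n = 3) of the gene's counts in wildtype and 25.6% ± 0.393 (SD, n = 2) in the deleted libraries, and bin 10 made up 26.6% ± 6.08 and 12.5% ± 0.201.

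Exon usage compares how a gene's counts divide among its bins, and was tested with edgeR's diffSpliceDGE in 15 members. Of these 0 were called, against 2.76% of the 13045 genes tested. One had an unadjusted p under 0.05, Tnfrsf11a, at which edgeR gave a p of 0.0345 and an adjusted p of 0.530. No other tool was run for it. Bins 3 and 10 of Tnfrsf11a therefore differ in share without passing the test.

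Tnfrsf13c, on chromosome 15, was the member that fell. It encodes the receptor of the B cell survival factor BAFF. It had 0.346, 0.298 and 0.296 CPM in wildtype and 0.182 and 0.121 CPM in the deleted libraries, without overlap. The means were 0.313 ± 0.0282 CPM (SD, n = 3) and 0.152 ± 0.0432 CPM (SD, n = 2), and the log2 fold change was −1.04 ± 0.28 (SE) with an edgeR adjusted p of 0.0203, the value nearest inside the threshold. Without deleted 2 it was −0.79 and did not pass (edgeR adjusted p = 0.134, from 0.0111 to 0.134 over 14 alternatives).

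Its ligand and its sister receptor did not pass. Tnfsf13b, which encodes BAFF, had 0.0884, 0.131 and 0.0417 CPM in wildtype and 0.107 and 0.0808 CPM in the deleted libraries (log2 fold change 0.24 ± 0.56, SE; edgeR adjusted p = 0.769). Tnfrsf13b, another BAFF receptor, had 0.0643, 0.105 and 0.0833 CPM in wildtype and 0.0750 and 0.151 CPM in the deleted libraries (0.44 ± 0.44, SE; edgeR adjusted p = 0.459). Both genes lay near the low-count limit and their groups overlapped.

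Tnfrsf23, a mouse decoy receptor of TRAIL, had 2.39, 2.74 and 2.51 CPM in wildtype and 2.41 and 3.09 CPM in the deleted libraries (log2 fold change 0.11 ± 0.13, SE; edgeR adjusted p = 0.526). Its groups overlapped, and 1 bin held 87.0% of its counts. Tnfrsf25, the death domain receptor of TL1A, had 1.01, 0.753 and 0.847 CPM in wildtype and 0.975 and 0.838 CPM in the deleted libraries (0.06 ± 0.17, SE; edgeR adjusted p = 0.805). Tnfrsf9, the T cell co-stimulatory receptor known as 4-1BB, had 0.402, 0.280 and 0.222 CPM in wildtype and 0.204 and 0.182 CPM in the deleted libraries (−0.61 ± 0.34, SE; edgeR adjusted p = 0.191). Both deleted libraries were below the wildtype ones for Tnfrsf9, and without wildtype 3 its log2 fold change was −0.84 and passed (edgeR adjusted p = 0.0490, from 0.0490 to 0.813 over 14 alternatives).

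Of the 5 tested chemokine and chemokine receptor genes 0 passed by edgeR, 0 had an unadjusted p under 0.05, and DESeq2 and limma-voom called 0. Cxcl14, a chemokine of epithelia, had 0.973, 1.21 and 1.06 CPM in wildtype and 1.40 and 1.23 CPM in the deleted libraries, without overlap (log2 fold change 0.29 ± 0.15, SE; edgeR adjusted p = 0.154). Cxcl12, the ligand of Cxcr4 that guides stem and progenitor cells, had 0.0643, 0.105 and 0.143 CPM in wildtype and 0.139 and 0.141 CPM in the deleted libraries (0.35 ± 0.41, SE; edgeR adjusted p = 0.530). Cxcr4 had 0.957, 1.02 and 0.833 CPM in wildtype and 0.900 and 0.828 CPM in the deleted libraries (−0.11 ± 0.15, SE; edgeR adjusted p = 0.618). For this ligand and its receptor the groups overlapped.

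Ccr7, which guides lymphocytes to lymph nodes, had 0.0884, 0.131 and 0.102 CPM in wildtype and 0.107 and 0.131 CPM in the deleted libraries (log2 fold change 0.17 ± 0.36, SE; edgeR adjusted p = 0.735). Ccr8, a T cell receptor for Ccl1, had 0.0965, 0.149 and 0.0787 CPM in wildtype and 0.204 and 0.111 CPM in the deleted libraries (0.60 ± 0.43, SE; edgeR adjusted p = 0.305). Both rest on 10 to 22 counts per library, and the groups overlapped.

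**Figure D4:**
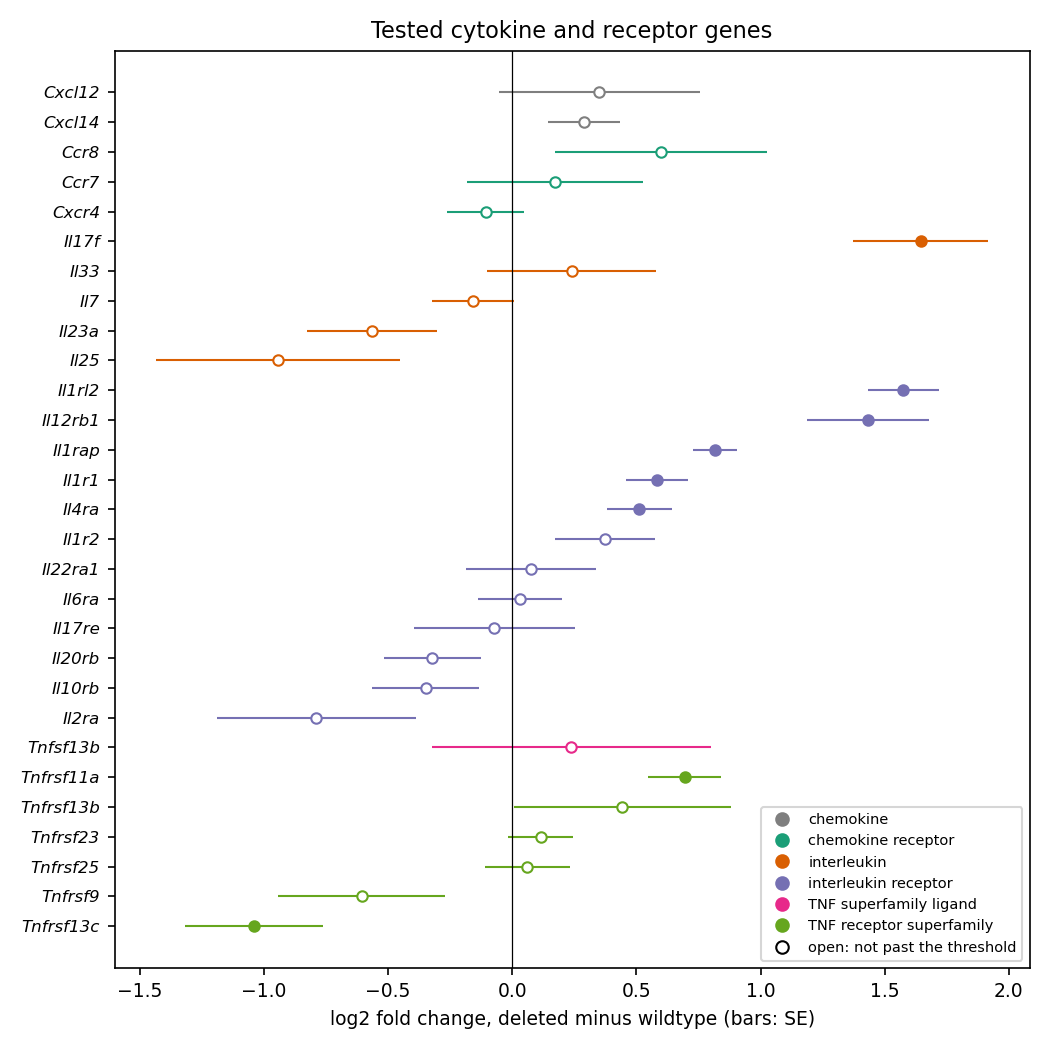
Log2 fold change, deleted minus wildtype (x), with SE bars for the 29 tested members (y), coloured by class. Filled points passed the threshold and open points did not. The interleukin receptor genes run from Il2ra at −0.79 to Il1rl2 at 1.58.

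Per length, levels can be set beside each other between genes, but only roughly. A read that spans bins is counted in each, and the length covers all annotated exons, also those without counts. In mean CPM per kilobase of exon (GENCODE vM21), Tnfrsf23 was the highest tested member at 0.663, followed by Cxcl14 at 0.643, Cxcr4 at 0.502, Il1r1 at 0.491 and Il1r2 at 0.404. The lowest were Cxcl12 at 0.0145 and Tnfsf13b at 0.0131. The median level of the tested members was −0.95 log2 CPM, against −1.12 for tested symbols and 3.46 for all tested rows. Rows with a symbol thus lie mostly low: 3591 of 10855 symbols were tested, against 16259 of all 24538 rows. The low levels, silent shares and ranks of members hold for genes with a symbol row and need not hold for all cytokine genes. Counts were also less evenly spread: the most counted bin held a median 56.7% of a tested member's counts, against 42.9% over tested symbols.

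Ligands and receptors were set side by side in 23 signalling systems listed by hand. In 17 systems no ligand was tested, and in 10 of these every listed receptor chain was. In 1 system, CXCL12 with Cxcr4, the ligand and every listed receptor chain were tested. The interleukin-1 beta system had both receptor chains, Il1r1 and Il1rap, and the decoy Il1r2 counted in each library, while Il1b and the antagonist Il1rn had 0 counts. The interleukin-36 system had Il1rl2 and Il1rap, with Il1f6 and the antagonist Il1f5 at 0 and Il1f8 and Il1f9 at 2 and 3 counts, all in wildtype 3.

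The other systems differed in which side was counted. The BAFF system had its ligand Tnfsf13b and the receptors Tnfrsf13c and Tnfrsf13b tested, with Tnfrsf17 at 36 counts. Interleukin-33 had its ligand and Il1rap tested, with Il1rl1 at 7 counts. Interleukin-23 had Il23a and Il12rb1 tested, while its other subunit Il12b and its private receptor Il23r totalled 4 and 3 counts. Interleukin-7 was the reverse of interleukin-1 beta, with the ligand tested and Il7r at 0. Ligands and receptor chains without a symbol row were not analysed here, so these descriptions cover the listed genes only. A system whose listed ligand had 0 counts may have another ligand that was not measured.

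The downstream genes listed for the pathways were partly covered. Of 35 JAK-STAT and gp130 genes 6 had symbol rows and 5 were tested. Stat5a, a transcription factor downstream of many cytokine receptors, averaged 1.51 ± 0.111 CPM in the wildtype (SD, n = 3) and 2.19 ± 0.0472 CPM in the deleted libraries (SD, n = 2) and rose, and the log2 fold change was 0.53 ± 0.11 (SE) with an edgeR adjusted p of 0.00852. Lif, the cytokine that sustains mouse ESC, fell, averaging 2.18 ± 0.0861 and 1.48 ± 0.0700 CPM, and the log2 fold change was −0.56 ± 0.11 (SE) with an edgeR adjusted p of 0.00571. The groups did not overlap in either gene. The Stat5a call was lost on leaving out either deleted library (edgeR adjusted p from 0.000741 to 0.0720 over 14 alternatives). Of 42 NF-kB and TNF receptor signalling genes 8 were tested and 0 passed by edgeR, with a median log2 fold change of 0.20. Of these 8, 3 had an unadjusted edgeR p under 0.05, and DESeq2 called 0 and limma-voom 1.

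Of 56 cytokine genes outside the symbol rule 34 had rows, 12 were tested, 1 rose and 2 fell. Kitl, the stem cell factor gene, rose from 3.38 ± 0.294 to 5.01 ± 0.609 CPM (log2 fold change 0.57 ± 0.11, SE; edgeR adjusted p = 0.00650). The Kitl call was lost without deleted 1 (edgeR adjusted p = 0.0727, from 0.000258 to 0.0727 over 14 alternatives). Csf2ra, the receptor chain of GM-CSF, fell from 1.04 ± 0.0667 to 0.321 ± 0.0599 CPM (−1.68 ± 0.18, SE; edgeR adjusted p = 0.000436), and Ifnlr1, a chain of the interferon lambda receptor, fell from 2.41 ± 0.0406 to 1.44 ± 0.145 CPM (−0.74 ± 0.11, SE; edgeR adjusted p = 0.00190). Tnf, Cd40lg, Xcl1, Csf2, Csf2rb2 and Ifng had 0 counts in every library.

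Markers of other cell types were measured in the same libraries. Of 25 leukocyte markers 16 had rows, and their summed level was 5.51 to 5.78 CPM in wildtype and 4.01 to 4.26 CPM in the deleted libraries. Most of it was Itgam and Cd79a, which both fell. The Itgam call was lost without deleted 1, and that of Cd79a without any 1 of the 5 libraries (edgeR adjusted p from 0.0767 to 0.164), with DESeq2, with limma-voom and with the replicate block (adjusted p from 0.0246 to 0.582 over 14 alternatives). Spi1 lay between 0.273 and 0.364 CPM, higher in both deleted libraries, and Cd14 between 0.0857 and 0.249 CPM, lower in both, and neither passed (edgeR adjusted p = 0.299 and 0.0617). The pan-leukocyte gene Ptprc lay between 0.00875 and 0.0322 CPM, and Itgax was at 0. The leukocyte sum thus moved against the 7 members that rose and with Tnfrsf13c, and its part in those values was not tested. Of 15 fibroblast markers 14 had rows and 8 were tested, of which Col1a2, Col5a2, Col6a1, Col6a2 and Pdgfrb rose. Their sum was 10.1 to 13.3 CPM in wildtype and 14.3 to 14.4 CPM in the deleted libraries, with Dcn at most 0.0139 CPM and Postn at most 0.0107 CPM among the lowest. All 5 of these calls were lost without 1 library or another, those of Col5a2 and Col6a2 without wildtype 1, wildtype 2, deleted 1 or deleted 2, Col1a2 without deleted 1, and Col6a1 and Pdgfrb without deleted 2. Fbn1, the highest fibroblast marker at 4.69 to 6.90 CPM, did not pass and its groups overlapped (log2 fold change 0.15). Twist1 (−0.17) overlapped too, while Col1a1 (0.18) was higher in both deleted libraries, and neither passed. The fibroblast sum moved with the members that rose, and its part was not tested.

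Endothelial markers (7 of 8 with rows, Emcn at 0) summed to 9.32 to 11.9 CPM in wildtype and 8.99 to 9.70 CPM in the deleted libraries, and Vwf and Erg fell, Vwf not without wildtype 2, deleted 1 or deleted 2. Primitive endoderm markers (8 of 9 with rows) summed to 7.89 to 9.07 CPM in wildtype and 5.11 to 6.44 CPM in the deleted libraries, and Sox7, Pdgfra and Cubn fell, Pdgfra not without deleted 1. By the most counted bin alone, Itgam, Cd79a, Pdgfrb, Vwf and Cubn did not pass. The endothelial sums of the groups overlapped. Among endothelial markers that did not pass, Cdh5 was higher in both deleted libraries (log2 fold change 0.91, edgeR adjusted p = 0.0787). Kdr was lower in both (−0.62, edgeR adjusted p = 0.0618), and the groups overlapped for Tek (0.15) and Tie1 (−0.42). The primitive endoderm sum was lower in both deleted libraries, against the members that rose, and its part was not tested. The other primitive endoderm markers did not pass and their groups overlapped. Their log2 fold changes were −0.02 for Gata4, −0.24 for Gata6, −0.13 for Sox17, 0.26 for Foxa2 and 0.10 for Dab2.

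Start-site windows from RefSeq matched 97 of the 125 members, with 113 windows. The median was 1.33 CpG per 100 bases in silent members (28 windows of 24 genes), 1.0 in trace members, 1.67 in those counted but not tested and 2.83 in tested members. Over the table the median was 0.667 in silent symbols and 3.67 in tested symbols, and it was 2.33 over all 32851 windows. The called members spanned nearly the whole range, from 1.0 in Il1rl2 and 1.33 in Il17f through 4.00 in Tnfrsf13c, 8.33 in Il4ra and 11 in Il1rap to 14.3 in Tnfrsf11a. Il12rb1 had no entry. These are descriptions of sequence, with no test.

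**Figure D5:**
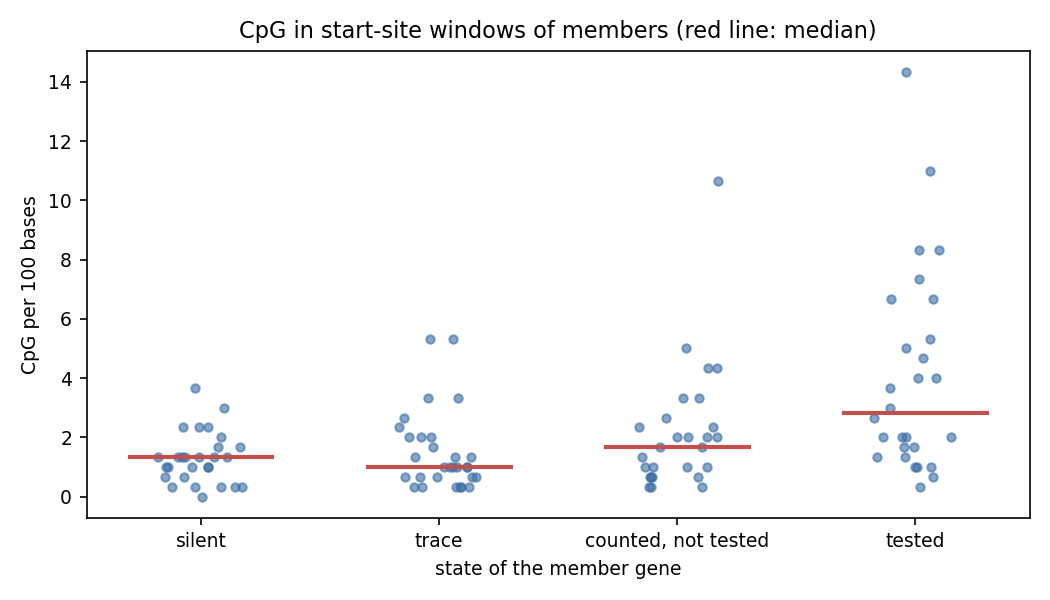
CpG per 100 bases (y) in start-site windows of member genes by state (x), 1 point per window, with a red line at the median. Silent windows reach 3.67 and tested windows 14.3.

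Motif letters were searched on both strands of the same windows. The TATA box letters TATAAA were in 21.2% of member windows against 13.6% of all windows. They were in 32.2% of silent and 10.1% of tested symbol windows. The AP-1 letters TGACTCA or TGAGTCA, which read as each other on the opposite strand, were in 15% against 5.20%. Silent and tested symbol windows had the AP-1 letters in 8.66% and 5.43%. The STAT motif known as GAS, TTCNNNGAA, was in 13.3% against 8.30%, beside 12.9% of silent and 7.08% of tested symbol windows. The member share of GAS is thus near that of silent symbols. The NF-kB motif, by its consensus with ambiguous letters, was in 15% against 8.46%. It was in 3.57% of silent and 21.4% of tested member windows, beside 3.78% of silent and 11.6% of tested symbol windows. Those member shares are 1 of 28 and 6 of 28 windows. A match is not a site in use, and windows of a gene can overlap.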

How the data were processed

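Polyadenylated RNA of 3 wildtype and 2 deleted libraries was measured. The authors deposited raw read counts per exon bin, 1 table of 243771 bins. The submitters' processing notes name STAR, without a version, and the build mm9. Annotation and strand setting: not given in the sources used here. A read that spans bins is counted in each. Members and lists were chosen with earlier results of these data known.

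Here, bin counts were summed per gene, leaving out 56 spike-in names. After filterByExpr and TMM scaling, all rows were fitted with edgeR's quasi-likelihood method, group only (R 4.3.3, edgeR 4.0.16, limma 3.58.1), with Benjamini-Hochberg adjustment and a threshold of 0.05. CPM use TMM-scaled library sizes. Exon usage was tested with diffSpliceDGE and Simes p. No pair of libraries was treated as 1.

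Named were every tested member, the 5 untested members with the most counts, silent and trace members by class, and every listed pathway gene past the threshold, up to 6 per list. A few genes covered by these rules are not reported by name here. Chromosomes, exon lengths and overlaps come from GENCODE vM21 (GRCm38), where all 125 members matched. Its build differs from mm9, so no coordinates of the deposited bins are given, and those of the start-site windows are of GRCm38.p6. Of all members, 17 have an exonic overlap with another gene there.

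Tested on simulated counts of 16117 genes for the deleted against wildtype comparison, the gene test recovered 56.9% of 1.5-fold, 76.1% of 2-fold and 98.5% of 4-fold changes, with 7.32% of 164 calls false. The changed genes, 65 to 67 per fold, were drawn from all tested rows, whose median level was 3.46 log2 CPM. The tested members had a median of −0.95, and recovery at their level was not measured. Far more of the real rows were called, so the false share need not carry over. In simulated exon usage of 12896 genes for that comparison, 21.0% of 2-fold and 94.9% of 4-fold changed bins were recovered, with 8.73% of 126 calls false. Alternatives covered scaling, filters, limma-voom, DESeq2 1.42.0, each gene's most counted bin, symbol rows alone, the replicate number as a block, and leaving out each library.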

Additional observations from a re-analysis of the deposited data

How the results depend on the processing

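The counts of 7 members higher and 1 lower held with DESeq2 size factors, total counts, both other filters, DESeq2, limma-voom and symbol rows alone. With the most counted bin they were 6 and 1. Leaving out a library gave 5 to 7 higher and 0 to 2 lower: 2 lower without wildtype 2 or wildtype 3, 0 without deleted 2, and 5 higher without deleted 1 or deleted 2. An arm of 1 library is assumed there to vary like the other group. Over all rows the counts then ranged from 1674 to 4146 higher and from 1532 to 4136 lower, with 1674 and 1532 without deleted 1 and 1788 and 2076 without deleted 2. Silent members were 68 with up to 3 counts allowed, and 34 to 43 without 1 library. No member was called in exon usage under any alternative run.

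Signs turned in uncalled members, apart from Tnfrsf11a. By the most counted bin the log2 fold changes were −0.054 for Il22ra1, −0.23 for Il33, −0.11 for Il6ra, 0.0047 for Il7 and −0.38 for Tnfrsf11a. With symbol rows alone they were −0.046 for Il6ra and −0.017 for Tnfrsf25. Leaving out 1 library, they ran from −0.0046 to 0.30 for Ccr7, −0.29 to 0.11 for Il17re, −0.032 to 0.24 for Il22ra1, −0.0043 to 0.41 for Il33, −0.060 to 0.12 for Il6ra, −0.18 to 0.85 for Tnfrsf13b, −0.10 to 0.28 for Tnfrsf23, −0.052 to 0.15 for Tnfrsf25 and −0.23 to 0.40 for Tnfsf13b. In 392 pairs of member and alternative, 364 kept direction and side of the threshold, 21 changed sign, 5 lost a call and 2 gained one. The cause was not tested.

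The labels do not say that replicate numbers pair libraries. Deviations from the group means correlated at 0.05 between wildtype 1 and deleted 1 and at −0.05 between wildtype 2 and deleted 2. With 2 deleted libraries, each correlation with deleted 2 is the one with deleted 1 with its sign turned. These values therefore cannot decide on pairing. With the replicate block 7 members were higher and 1 lower, no member's call changed, all rows gave 4216 higher and 4034 lower, and the log2 fold change of Tnfsf13b was −0.22.

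The 96 members that were not tested had at most 30 counts in a library, and no statement is made on their differences.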
